A study of Homo sapiens with 4 samples.

Results

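The interleukin and interleukin receptor genes described here are IL32 and IL18, which encode secreted cytokines, and IL2RG, IL15RA, IL4R, IL13RA1, IL20RB, IL17RB, IL17RC and IL17RE, which encode receptor chains. They are 10 of the 19389 protein-coding rows of the deposited table, taken by gene symbol, and each symbol had a row. The genes were picked with earlier results of the same comparison known, so their levels are given as a description and carry no test of their own. Cytokines that signal through gp130 were left aside.

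The cells were SW620, a line established from a human colorectal cancer, and RNA was profiled in 2 libraries of control and 2 of exposed cells. The control cells were labelled only as control SW620, and the other cells were exposed to 150 uM H2O2 (hydrogen peroxide, an oxidant) for 2 days according to the sample labels, while the design text of the series gives the dose in mM. All 4 libraries are of the same line with no other agent or allele named, and the exposed cells are termed senescent in the series title. The labels do not state whether separate cultures were used for the libraries in each group, so the spread between them may be technical.

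Many interleukin receptors combine several chains. IL2RG, the common gamma chain, is shared by the receptors of IL-2, IL-4, IL-7, IL-9, IL-15 and IL-21 and is best known from lymphocytes, whereas IL4R with IL13RA1 forms the receptor for IL-4 and IL-13 that epithelial cells carry and that signals through JAK kinases and the factor STAT6. The IL-17 receptors pair IL17RA with a second chain, and IL17RB, IL17RC and IL17RE are such chains, while colon epithelium is known to make IL-18 without stimulation and to answer IL-17C through IL17RE.

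The levels are FPKM, fragments mapped per kilobase of transcript, scaled to the mapped fragments of the library, as the authors deposited them, so levels of different genes can be set side by side per length. Summed FPKM ranged from 660859.8 to 695837.5 for control and from 574781.8 to 617667.5 for treated libraries, and read depth is unknown because no counts were used. Differences are given on the log2(FPKM + 1) scale as treated minus control with the SE of a linear model (limma) across 11318 genes that had at least 1 FPKM in at least 2 libraries. The pseudocount of 1 understates the change of low genes. Of 12 markers of epithelial and colon cells 7 reached 1 FPKM in at least 2 libraries, among them KRT8 between 2669.4 and 3616.3 FPKM and EPCAM between 215.1 and 336.0 FPKM. The colon markers CDX1, KRT20, CEACAM5, CEACAM6 and LGALS4 did not, with CDX1 listed at 0 in all 4 libraries and KRT20 at or below 0.743 FPKM. Across all genes the share limma called at an adjusted p below 0.05 was 0% in each direction (smallest adjusted p 0.0511), so no interleukin gene was called. At an unadjusted p below 0.05, 6.22% of genes were higher in treated cells and 4.91% lower.

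IL32, IL2RG and IL15RA stood apart from the other 7 genes in that both controls lay below 1 FPKM and both treated libraries above it. The bases before their RefSeq start sites (build GRCh38.p14) are shown because these 3 genes passed 1 FPKM only in the treated libraries. Each line gives 250 bases, 5′ to 3′ on the strand of the gene, ending at the base before the start site, and capitals mark matches to the motifs searched.
IL32, chr16:3065153-3065402, + strand: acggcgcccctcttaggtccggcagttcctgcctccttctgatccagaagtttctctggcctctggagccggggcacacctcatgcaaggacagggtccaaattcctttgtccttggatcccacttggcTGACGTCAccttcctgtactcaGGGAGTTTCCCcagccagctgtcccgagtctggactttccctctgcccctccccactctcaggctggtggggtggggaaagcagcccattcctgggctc
IL15RA, chr10:5978047-5978296, - strand: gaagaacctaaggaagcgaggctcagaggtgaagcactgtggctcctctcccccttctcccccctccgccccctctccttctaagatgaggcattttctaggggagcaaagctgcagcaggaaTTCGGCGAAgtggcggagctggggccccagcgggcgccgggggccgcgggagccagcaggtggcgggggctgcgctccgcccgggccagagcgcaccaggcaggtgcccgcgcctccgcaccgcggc
IL2RG, chrX:71111578-71111827, - strand: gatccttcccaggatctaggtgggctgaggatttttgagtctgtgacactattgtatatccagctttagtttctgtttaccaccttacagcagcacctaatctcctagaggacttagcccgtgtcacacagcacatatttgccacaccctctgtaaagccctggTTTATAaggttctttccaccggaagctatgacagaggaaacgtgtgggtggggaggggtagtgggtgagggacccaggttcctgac
The windows of IL32 and IL15RA reach 106 and 141 bases into the deposited locus, and that of IL2RG lies wholly inside it, so the deposited gene models begin upstream of these RefSeq starts.

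Of the 10 genes, 9 had a RefSeq window, 14 windows in all, and 5 motifs were searched on both strands. IL32 has 2 windows, the one shown and chr16:3065534-3065783, which holds no match. In the IL32 window shown a CRE, the cyclic AMP response element TGACGTCA, lies 121 to 114 bases before the start, and such a match occurs in 1.95% of 20657 windows of genes in the table. A match to the NF-kB consensus lies 99 to 90 bases before the IL32 start and a second one on the opposite strand, 98 to 89 bases before it, overlaps the first by all but 1 base. Windows with an NF-kB match make up 5.8% of all. The IL15RA window shown holds a STAT motif (TTCNNNGAA, 5.89% of windows) 127 to 119 bases before its start, and the 3 other IL15RA windows each hold an AP-1 motif (TGANTCA, 5.4% of windows), although 2 of those windows overlap and share it. The IL2RG window holds a TATA motif (TATAAA, 8.84% of windows) on the opposite strand. IL4R has 2 further matches to the NF-kB consensus, and none of the windows of IL13RA1, IL20RB, IL17RB, IL17RC and IL17RE holds a match to these motifs. A match describes letters only.
The windows also differ in base composition. GC content was 80.8% in the IL4R window, 77.6% in that of IL17RB and 75.6% in that of IL13RA1, above the median of 62.0% over all windows, and 53.6% in that of IL20RB, below it. It was lower still in a further IL15RA window (44.8%), in 1 of 2 windows of IL17RE (50.4%) and in the IL2RG window, which lay between these 2 values.

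IL32 encodes a pro-inflammatory cytokine that epithelial cells and lymphocytes make, and lies on chromosome 16, 3065297 to 3082192 (hg38), as a gene with 30 annotated coding transcripts. Its level was 0.519 FPKM in control 1, 0.272 in control 2, 1.13 in treated 1 and 5.32 in treated 2. The groups did not overlap, but treated 2 stood far above treated 1. The means were 0.395 ± 0.175 and 3.22 ± 2.96 FPKM (SD, n = 2), a difference of 1.40 ± 0.49 (SE, log2 scale). The difference was 0.61 without treated 2 and 2.19 without treated 1, so its size rests on treated 2 while its direction held.

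IL18 encodes a cytokine of the IL-1 family that is made as a precursor and cut by caspase-1, and lies on chromosome 11, 112143251 to 112164117. It stood at 2.87 and 1.23 FPKM in the controls and at 2.09 and 3.28 FPKM in the treated libraries. The groups overlapped, and the difference of 0.31 ± 0.32 (SE) was no larger than its error and became -0.092 without control 2. IL18BP, which binds and neutralises IL-18, stood at 1.39 and 1.78 FPKM in controls and at 2.06 and 1.498 FPKM in treated libraries. Within a library the ratio of IL18 to IL18BP was 2.07 and 0.693 for controls and 1.02 and 2.19 for treated libraries, so the groups overlapped in this ratio as well. CASP1 was listed at 0 in 3 libraries and at 0.101 FPKM in treated 2, and both receptor chains for IL-18 were near 0, IL18R1 at or below 0.0755 FPKM and IL18RAP at or below 0.111 FPKM.

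**Figure D1:**
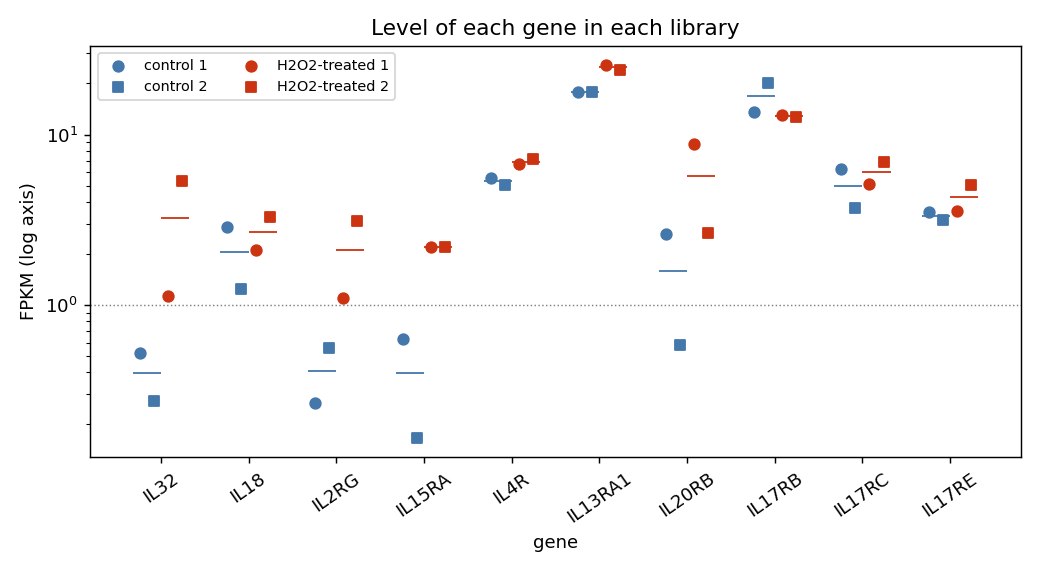
FPKM on a log axis (y) of the 10 genes (x) in the 2 control and 2 H2O2-treated libraries, with each library as a point and group means as short lines, the dotted line marking 1 FPKM. IL32, IL2RG and IL15RA lie below 1 FPKM in both controls and above it in both treated libraries, whereas IL13RA1 and IL17RB are the most abundant in every library.

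IL15RA encodes the chain that binds IL-15 and presents it to neighbouring cells, and lies on chromosome 10, 5943639 to 5978187. Its level was 0.632 and 0.164 FPKM in the controls, and 2.196 and 2.18 FPKM after treatment. The treated libraries were nearly equal, and the lower of them was 3.45 times the higher control, the largest such ratio among the 10 genes. The difference was 1.21 ± 0.24 (SE, log2 scale), with 0.97 to 1.45 when any 1 library was left out. It was 0.94 after quantile normalization and 1.60 after rescaling to TPM.
IL2RG, on chromosome X, 71107404 to 71112108, stood at 0.264 and 0.553 FPKM in the controls and at 1.10 and 3.09 FPKM in the treated libraries. As for IL32, the groups did not overlap and treated 2 was the highest library. The difference was 1.06 ± 0.35 (SE), 0.58 without treated 2 and 1.54 without treated 1. The annotated gene AL590764.2 shares 1403 exon bases with IL2RG on the same strand, so fragments of the one cannot be told from those of the other.
Non-coding genes share 151 exon bases with IL15RA and 129 with IL32 on the same strand, and 339 with IL4R and 99 with IL17RB on the opposite one.
IL15RA, IL2RG and IL32 passed the filter on low values only through the treated libraries, so they could hardly have appeared lower.

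Apart from IL4R, which shares IL2RG in the receptor of IL-4 and is given below, the partners of IL15RA and IL2RG were low. Most were close to the floor of the table. IL2RB, the chain that IL-2 and IL-15 receptors share, did not exceed 0.105 FPKM, IL2RA did not exceed 0.11 FPKM, and IL15 itself did not exceed 0.0821 FPKM. JAK3, the kinase that binds the common gamma chain, stood at 0.0378 and 0.0592 FPKM in controls and at 0.0731 and 0.399 FPKM in treated libraries. Of the other chains that pair with IL2RG, IL9R was listed at 0 in all 4 libraries, IL21R lay between 0.324 and 0.547 FPKM and IL7R between 0.202 and 1.01 FPKM. None of the 14 other class I receptor chains reached the filter, and 4 of them were listed at 0 in all 4 libraries.

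IL2RG and IL32 are also expressed by lymphocytes, so leukocyte markers are given beside them. Of 18 such markers 4 were tested, and their summed level over the whole list was 26.3 and 24.1 FPKM in controls and 29.6 and 66.6 FPKM in treated libraries. The defining gene PTPRC was listed at 0 in 3 libraries and at 0.0082 FPKM in treated 1, while CD2 and TYROBP were listed at 0 in all 4 and CD3E did not exceed 0.0262 FPKM. Other markers were highest in treated 2, the library in which IL32 and IL2RG were highest. In control 1, control 2, treated 1 and treated 2, CD68 stood at 1.92, 1.83, 7.65 and 17.7 FPKM. In the same order LYZ stood at 2.95, 4.43, 4.41 and 18.4 FPKM. The tested markers LYZ, LAPTM5 and CORO1A overlapped between groups. LAPTM5 stood at 5.47, 6.98, 4.43 and 9.05 FPKM and CORO1A at 14.8, 9.35, 11.5 and 16.7 FPKM in that order. CD52 was listed at 0 in both controls and stood at 0.172 and 1.47 FPKM in treated libraries. The part of these genes in the levels of IL32 and IL2RG was not tested, and in bulk RNA a few cells with a high level cannot be told from many with a low one.

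IL4R binds IL-4, and IL13RA1 binds IL-13 and completes the receptor. IL13RA1, on chromosome X, 118727572 to 118794539, had the highest mean of the 10 genes in both groups, at 17.7 and 17.9 FPKM in controls and at 25.8 and 24.0 FPKM in treated libraries. Each group was tight and the groups did not overlap, with means of 17.8 ± 0.0905 and 24.9 ± 1.23 FPKM (SD, n = 2) and a difference of 0.46 ± 0.16 (SE). IL4R, on chromosome 16, 27313668 to 27364778, stood at 5.58 and 5.02 FPKM in controls and at 6.72 and 7.15 FPKM in treated libraries. Its difference was 0.33 ± 0.17 (SE) and stayed between 0.27 and 0.40 when any 1 library was left out. The treated mean was 1.40 times the control mean for IL13RA1 and 1.31 times for IL4R. The ratio of IL13RA1 to IL4R within a library was 3.18 and 3.56 in controls and 3.83 and 3.36 in treated libraries, with overlap between the groups. IL13RA2, a decoy receptor for IL-13, and the ligand genes IL4 and IL13 were listed at 0 in all 4 libraries.

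Downstream of this receptor, STAT6 stood at 17.6 and 15.4 FPKM in controls and at 21.2 and 24.2 FPKM in treated libraries, without overlap, and limma did not call it (difference 0.44; adjusted p = 0.433, unadjusted p = 0.0424). JAK1, a kinase bound to IL4R, stood at 23.3 and 23.9 FPKM in controls and at 27.3 and 25.4 FPKM in treated libraries (difference 0.15; adjusted p = 0.777). Of 16 genes listed here as epithelial targets of IL-4 or IL-13, 4 were tested, 2 with a positive and 2 with a negative difference. None was called, and the response of these 4 to either cytokine was not tested. The positive ones were CISH (0.27, without overlap) and IRS2 (0.18, with overlap). The negative ones were TFF3 (-0.32) and IRS1 (-0.04), both without overlap. Within that list CCL26, a chemokine typically induced by IL-13 and too low in 3 libraries for the filter, was at 0.157 and 0.129 FPKM in controls and at 0.652 and 2.39 FPKM in treated libraries, a gene named after its values were seen.

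**Figure D2:**
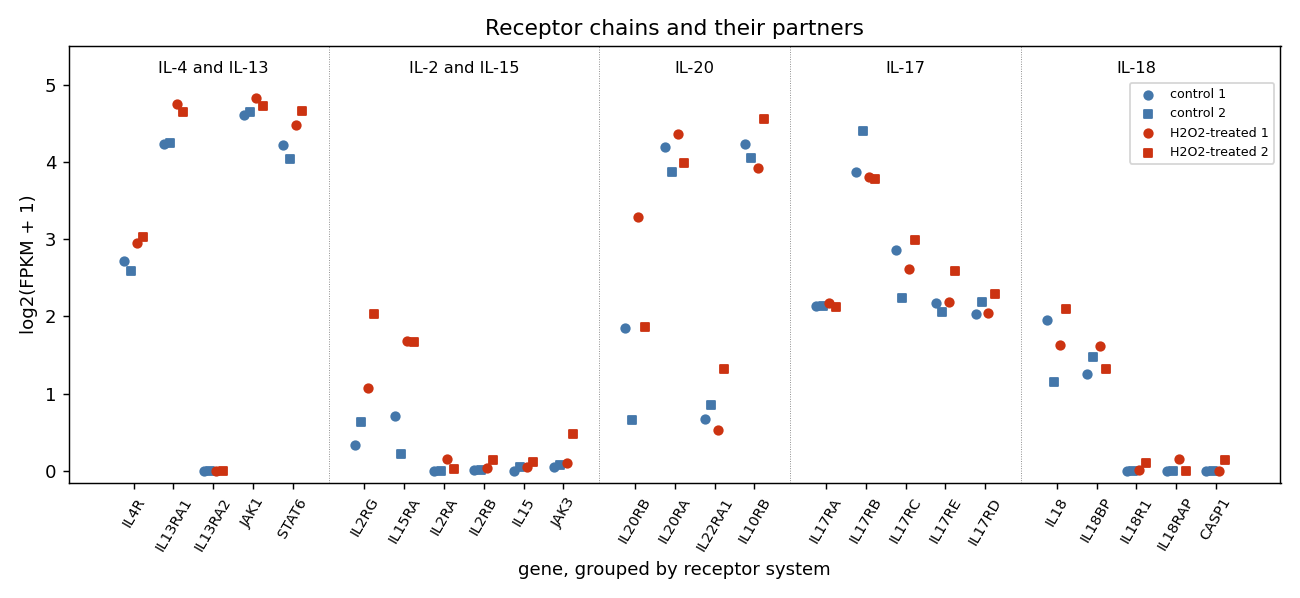
Level as log2(FPKM + 1) (y) of receptor chains, ligands and signalling partners (x), grouped by receptor system, with 1 point for each of the 4 libraries. The partners IL2RA, IL2RB, IL15, IL13RA2, IL18R1, IL18RAP and CASP1 lie at or near 0 in every library, whereas IL20RA, JAK1 and STAT6 are well expressed.

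IL20RB encodes the chain that pairs with IL20RA to bind IL-19, IL-20 and IL-24, and lies on chromosome 3, 136957865 to 137011085. Its level was 2.60 FPKM in control 1, 0.578 in control 2, 8.79 in treated 1 and 2.65 in treated 2. The lowest treated library was only 1.02 times the highest control, so the groups were separated by less than the gap within either of them. Unlike IL32 and IL2RG, IL20RB was highest in treated 1. The difference was 1.33 ± 0.55 (SE), and 0.61 without treated 1 and 2.04 without treated 2. It depended on the controls as well, at 1.92 without control 1 and 0.73 without control 2. Its partner IL20RA was abundant and overlapped between groups, at 17.2 and 13.6 FPKM in controls and at 19.5 and 14.8 FPKM in treated libraries (difference 0.15; limma adjusted p = 0.845). IL20RA exceeded IL20RB by a factor of 6.63 and 23.5 in control and of 2.22 and 5.60 in treated libraries. The alternative partner IL22RA1 lay between 0.438 and 1.498 FPKM, and the ligand genes IL20 and IL24 were listed at 0 throughout while IL19 did not exceed 0.354 FPKM. The gene NCK1, which shares 66 exon bases with IL20RB on the same strand, stood at 18.0 and 17.7 FPKM in controls and at 22.9 and 18.2 FPKM in treated libraries.

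The IL-17 receptor chains did not move as 1 group. IL17RB, a receptor for IL-25 and IL-17B on chromosome 3, 53846580 to 53865800, was the only one of the 10 genes with a negative difference, at 13.5 and 20.1 FPKM in controls and at 13.02 and 12.7 FPKM in treated libraries. The treated libraries were nearly equal and lay just under control 1, at 0.961 times its level where the groups came closest. The difference of -0.34 ± 0.22 (SE) was -0.068 without control 2 and -0.17 after rescaling to TPM, where the groups overlapped.
IL17RC, the partner of IL17RA for IL-17A and IL-17F, lies on chromosome 3, 9917074 to 9933621, and stood at 6.26 and 3.71 FPKM in controls and at 5.13 and 6.92 FPKM in treated libraries. The groups overlapped, with a difference of 0.25 ± 0.26 (SE) that became -0.058 without control 2. IL17RE, the receptor chain for IL-17C at 9902619 to 9916402 on the same chromosome, stood at 3.50 and 3.16 FPKM in controls and at 3.56 and 5.03 FPKM in treated libraries. Treated 1 was only 1.02 times control 1, and the difference of 0.28 ± 0.21 (SE) was 0.077 without treated 2. The common chain IL17RA varied least, at 3.41, 3.38, 3.49 and 3.34 FPKM in control 1, control 2, treated 1 and treated 2 (difference 0.007; limma adjusted p = 0.995). Relative to IL17RA, IL17RB stood at 3.98 and 5.95 in controls and at 3.73 and 3.81 in treated libraries, while IL17RE stood at 1.03 and 0.933 in controls and at 1.02 and 1.503 in treated libraries. The ligand genes IL17A, IL17B and IL25 were listed at 0 in all 4 libraries, and IL17C and IL17F did not exceed 0.119 and 0.0501 FPKM. IL17D was the IL-17 ligand gene expressed enough to be tested, at 2.41 and 1.97 FPKM in controls and at 3.12 and 1.04 FPKM in treated libraries, with overlap (difference -0.13; limma adjusted p = 0.929).

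IL17RE and IL17RC are neighbours on the same strand, 671 bases apart in GENCODE release 29, and CRELD1 follows IL17RC after 191 bases. CRELD1 stood at 4.43 and 6.43 FPKM in controls and at 6.29 and 8.59 FPKM in treated libraries, so all 3 adjacent genes had their highest level in treated 2. IL17RB starts 189 bases from CHDH on the opposite strand, a gene at 30.7 and 24.0 FPKM in controls and at 28.8 and 14.1 FPKM in treated libraries. Neighbours of the low genes stood either near 0 or well above them. IL2RA, next to IL15RA, was listed at 0 in both controls and stood at 0.11 and 0.0194 FPKM in treated libraries. MMP25, next to IL32, stood at 0.056 and 0.0111 FPKM in controls and at 0.106 and 0.142 FPKM in treated libraries. FBH1, on the other side of IL15RA, stood at 16.3 and 16.6 FPKM in controls and at 19.0 and 19.4 FPKM in treated libraries. ZSCAN10, on the other side of IL32, stayed at or below 0.114 FPKM and overlapped between groups, as did MED12, next to IL2RG. CXorf65, next to IL2RG, was listed at 0 in all 4 libraries, and IL21R, next to IL4R, is given above.

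In all, 9 of the 10 genes had a positive difference and 1 a negative one, where 45.7% of all 11318 genes tested had a positive difference. The groups did not overlap in 7 genes that were higher and 1 that was lower, while 19.3% of all genes tested were higher and 24% lower without overlap. Because the same comparison was known when the genes were picked, nothing is read from these shares. The median difference was 0.40 over the 10 genes and -0.03 over all genes, with a range of -0.34 to 1.40. After quantile normalization IL20RB and IL17RE overlapped between groups, which left 5 higher and 1 lower, beside 18.1% and 21.1% of all genes tested. After rescaling to TPM IL17RB overlapped, which left 7 higher and 0 lower, beside 35.2% and 8.59%. After upper-quartile scaling IL17RB overlapped as well, which left the same counts beside 26.1% and 16%. In order of the control mean the genes ran IL13RA1, IL17RB, IL4R, IL17RC, IL17RE, IL18, IL20RB, IL2RG, IL15RA and IL32, and IL17RB and IL13RA1 overlapped in the controls, as did IL4R with IL17RC, IL18 with IL20RB, IL20RB with IL15RA, and the last 3 genes with one another.

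**Figure D3:**
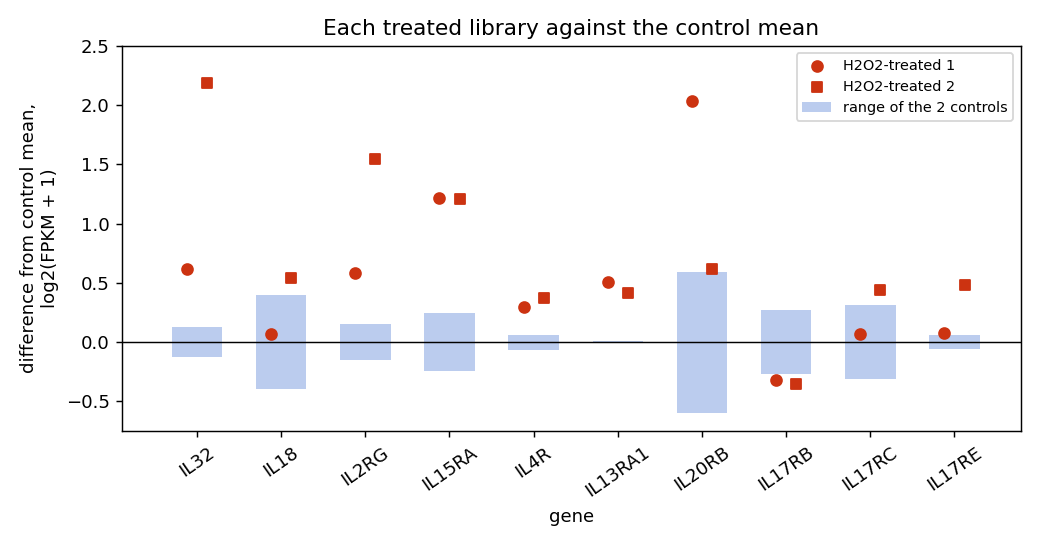
Difference of each treated library from the control mean on the log2(FPKM + 1) scale (y) for the 10 genes (x), with the bar showing the range of the 2 controls around their mean. IL15RA, IL4R, IL13RA1 and IL17RB show nearly equal treated libraries, whereas IL32 and IL2RG are higher in treated 2 and IL20RB in treated 1.

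The treated libraries differed from each other as much as the groups did for several genes. The gap between them exceeded 0.716, the 90th percentile over all genes tested (log2 scale), in 3 of the 10 genes, at 1.57 in IL32, 1.42 in IL20RB and 0.96 in IL2RG. The gap between controls exceeded its own 90th percentile of 0.448 in 5 of 10 genes, IL20RB (1.19), IL18 (0.80), IL17RC (0.62), IL17RB (0.54) and IL15RA (0.49). Levels were higher in treated 2 than in treated 1 in 6 genes and lower in 4, and higher in control 1 than in control 2 in 7 genes. IL13RA1 and IL4R were the 2 genes whose gaps were small in both groups, at 0.01 and 0.13 between controls and at 0.10 and 0.08 between treated libraries.

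**Figure D4:**
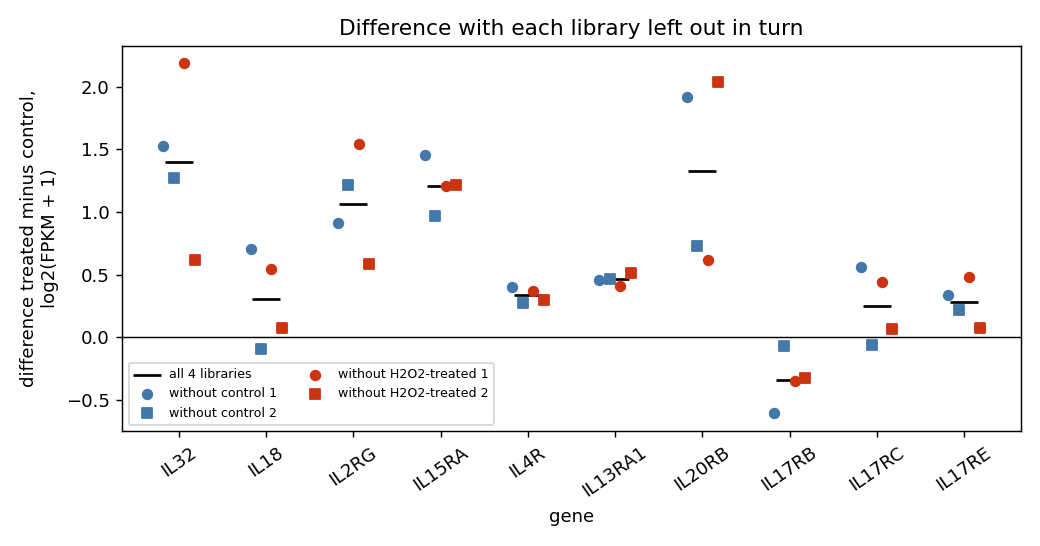
Difference treated minus control on the log2(FPKM + 1) scale (y) for the 10 genes (x), with all 4 libraries as a black line and with each library left out as a point. IL15RA, IL4R and IL13RA1 shift little, and IL18 and IL17RC cross 0 without control 2. IL32, IL2RG and IL20RB depend on which treated library is kept, and IL20RB also on which control is kept.

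The other genes of the interleukin pathways were taken from lists of ligands, receptors, kinases, factors and inhibitors. They hold 163 further genes, of which 70 were expressed enough to be tested and 32 were listed at 0 in all 4 libraries. By limma 0 of the 70 were called in either direction, and at an unadjusted p below 0.05 there were 6 higher and 1 lower, beside 6.22% and 4.91% of all genes. Their median difference was 0.10, against -0.03 over all genes.
Among inhibitors of JAK and STAT signalling, 14 of 17 genes had a positive difference (median 0.16), beside 45.7% of all genes tested. SOCS3 and SOCS2, feedback inhibitors that cytokines induce, had the smallest p. SOCS3 stood at 2.19 and 1.32 FPKM in controls and at 4.69 and 3.84 FPKM in treated libraries, without overlap (difference 0.95; limma adjusted p = 0.305, unadjusted p = 0.00574). SOCS2 stood at 3.50 and 1.94 FPKM in controls and at 7.75 and 4.77 FPKM in treated libraries (difference 0.96; adjusted p = 0.352). Of the JAK kinases and STAT factors 7 of 8 tested genes had a positive difference (median 0.24), and STAT6, given above, was among them. Rescaling to TPM moved the median of all genes to 0.14, and the medians of these lists were not computed on that scale.

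Class II receptor chains had a positive difference in 6 of 7 tested genes (median 0.14), beside 45.7% of all genes tested. IFNAR2, a chain of the type I interferon receptor, was at 6.87 and 6.27 FPKM in controls and at 8.71 and 9.83 FPKM in treated libraries (limma adjusted p = 0.429). Adaptors and regulators of IL-17 signalling went both ways, 7 positive and 6 negative (median 0.03). Among them SRSF1, a splicing factor that acts on mRNAs of the pathway, was at 335.4 and 349.5 FPKM in controls and at 266.1 and 216.4 FPKM in treated libraries (adjusted p = 0.414), and TRAF2 at 17.2 and 16.4 and at 12.1 and 13.1 FPKM (adjusted p = 0.45). Genes of IL-18 processing and signalling went both ways as well, 6 positive and 6 negative (median -0.002). CASP8, a caspase that can cleave IL-18 precursor, was at 5.68 and 5.99 FPKM in controls and at 9.09 and 9.59 FPKM in treated libraries (adjusted p = 0.323). Of the epithelial targets of IL-17 only IER3 and TFF3 were tested, with IER3 at 234.1 and 277.2 FPKM in controls and at 279.8 and 353.9 FPKM in treated libraries, and TFF3 at 51.8 and 51.2 and at 33.2 and 50.5 FPKM. The IL-1 receptors tested were IL1R2, IL1RAP and SIGIRR, an inhibitory receptor at 53.3 and 53.1 FPKM in controls and at 44.0 and 56.6 FPKM in treated libraries. Among the other interleukin ligands listed, IL32 and the IL-1 and IL-17 families left aside, IL23A and IL10 passed the filter. Of these ligands IL23A, a subunit of IL-23, was by far the most abundant. It stood at 51.8 and 20.7 FPKM in controls and at 47.5 and 31.3 FPKM in treated libraries, with overlap.

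Fibroblast and endothelial markers were counted as well. Their summed levels were 5.52 and 10.3 FPKM in controls and 6.41 and 12.99 FPKM in treated libraries for 9 fibroblast genes, and 8.94 and 6.47 and 13.7 and 15.8 FPKM for 8 endothelial genes, with COL1A2, COL3A1 and FAP at or below 0.0086 FPKM and CDH5 and KDR at or below 0.0403 FPKM. Some other markers of these lists were higher in both treated libraries than in both controls. TIE1 stood at 0.0941 and 0.0991 FPKM in controls and at 2.21 and 1.67 FPKM in treated libraries (limma adjusted p = 0.166, unadjusted p = 0.000499), and EGFL7 at 8.58 and 6.24 and at 10.9995 and 13.7 FPKM (adjusted p = 0.366). THY1 stood at 0.361 and 0.159 FPKM in controls and at 1.37 and 1.93 FPKM in treated libraries (adjusted p = 0.265). LUM overlapped, at 2.64 and 5.96 and at 2.00 and 6.94 FPKM, as did COL1A1, at 1.72 and 3.16 and at 1.23 and 3.06 FPKM. Of the 4 fibroblast markers tested, 2 had a positive and 2 a negative difference. The part of these genes in the levels of the interleukin genes was not tested.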

How the data were processed

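SW620 RNA-seq libraries, 2 control and 2 H2O2-treated, were analysed from the deposited table of FPKM, with 1 value per gene and library. Libraries were made from total RNA with a kit that keeps strand, per the labels' protocols. STAR 2.5, Cufflinks 2.2.1 and build hg38 are named, without their roles, per the submitters' processing notes. Which annotation, strand setting or filters were used is not given in the sources used here, so fragments of overlapping or antisense genes may be shared. FPKM as deposited by the authors are estimates without read counts, so no interval for counting error can be given.

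FPKM were transformed as log2(FPKM + 1). Rows reaching 1 FPKM in 2 or more libraries, 11318 of 19389, entered limma 3.58.1 in R 4.3.3 with group as the only term and a variance trend (2 residual and 6.28 total degrees of freedom), two-sided, with Benjamini-Hochberg adjustment over all of them at 0.05. Single p-values printed are from this fit. Of symbols on 2 rows (14 symbols, 28 rows) the higher mean was taken. All 210 list symbols had a row. The fit was tested on simulated data with known changes. Named genes were the 10 members, fixed partners, nearest neighbours and, for each list, the 2 tested genes with the smallest p where none was called. Not all of the last are printed. The members and lists were chosen with earlier results of these data known.

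Deposited start positions count from 0 (14590 starts matched GENCODE release 29 on that reading, 68 when counted from 1) and are printed counted from 1. Start-site windows are from RefSeq, build GRCh38.p14, and IL18 was not among them. Figures were drawn with matplotlib 3.10.9 in Python 3.11.15. Alternatives were other pseudocounts, filters and scalings, no variance trend, each library left out, and a replicate block.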

Additional observations from a re-analysis of the deposited data

How the results depend on the processing

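Of 124 values of the 10 genes under 13 alternatives, 109 moved by less than 1 SD between replicates. Another 13 moved by more with the same sign, all under other pseudocounts or scalings. IL13RA1 and IL4R were among them, at 0.65 and 0.52 after rescaling to TPM, and at 0.39 and 0.21 with a pseudocount of 5. The remaining 2 turned sign without control 2. These were IL18, whose value ranged from -0.092 to 0.705 with 1 library left out, and IL17RC, from -0.058 to 0.565. The count of 109 is no measure of stability. Other filters, no variance trend and the block leave a gene's difference unchanged. Leaving out 1 library cannot shift it by more than this SD, so only a change of sign could show there. The low genes depended on the pseudocount, with IL15RA at 2.38, IL32 at 2.43 and IL2RG at 2.00 for 0.1, and at 0.42, 0.56 and 0.38 for 5. At a mean of at least 5 FPKM, 4 of the 10 genes were kept.

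Over all genes, limma called 0 higher and 0 lower. With a mean of at least 5 FPKM it called 5 higher, and after rescaling to TPM 32 higher, which moved the median of all genes to 0.14. Leaving out 1 library, which assumes that the remaining library of that group varies as the other group does, it called 8 to 127 genes higher and 0 to 13 lower, and 0 of the other interleukin pathway genes in each case. The largest counts came without treated 1. With the replicate number as a block, which leaves 1 residual degree of freedom, 397 genes were called higher, 190 lower and 2 pathway genes, SOCS2 (adjusted p = 0.0123) and SOCS3 (adjusted p = 0.016). Deviations of libraries with the same number were correlated across genes (r = 0.45), but the labels do not say that the numbers pair the libraries. Members not overlapping and lower numbered 1, beside 24% of all genes tested. Such members numbered 0 after rescaling to TPM (8.59% of all genes) or upper-quartile scaling (16%). Depth is unknown, and with 2 libraries a group small differences could not be shown.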

Other observations

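Some interleukin pathway genes that stood too low to be tested had groups that did not overlap, in both directions; the examples were chosen after their values were seen. IL12A, a subunit of IL-12 and IL-35, stood at 0.266 and 0.278 FPKM in controls and at 0.646 and 0.622 FPKM in treated libraries. LCN2, an iron-binding protein that IL-17 induces in epithelia, stood at 0.266 and 0.219 FPKM in controls and at 0.390 and 0.726 FPKM in treated libraries. In both of these genes the treated libraries lay above the controls. IL7R, the receptor chain for IL-7, was lower in treated libraries, at 0.527 and 1.01 FPKM in controls and at 0.202 and 0.506 FPKM after treatment. IL16, a ligand of CD4, stood at 0.252 and 0.196 FPKM in controls and at 0.101 and 0.130 FPKM in treated libraries. NAIP, an inflammasome sensor, stood at 0.909 and 1.04 FPKM in controls and at 0.826 and 0.705 FPKM in treated libraries. No test was made of these differences.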
